A study of Mus musculus with 16 samples.

Results

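Injured livers with and without Lcn2 were compared on 9 Agilent 1-colour arrays, 4 from Lcn2-/- CCl4 animals and 5 from WT CCl4 animals, out of 16 arrays in all. The members were chosen by their sample titles. All were male BALB/c mice aged 6 to 8 weeks, and the Lcn2-/- line, first made on a mixed 129/Ola and C57BL/6 background, had been backcrossed repeatedly to BALB/c. CCl4 at 0.5 ml/kg in corn oil was given 2 times per week over 4 weeks, and livers were collected 48 h after the final injection. The remaining arrays, 4 WT control and 3 Lcn2-/- control, came from mice of the same strains that received corn oil alone, and they serve below as the background for each genotype difference. Each array held the RNA of a whole-liver sample, so fewer cells of a type and less RNA per cell cannot be told apart.

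Lcn2 encodes lipocalin 2, a secreted protein of neutrophils and injured epithelium that withholds iron from bacteria by binding their siderophores. CCl4 is activated by cytochrome P450 enzymes of the hepatocyte, kills the cells around the central vein and, when repeated, activates hepatic stellate cells to deposit collagen. In a line carried onto another strain, the DNA that flanks the targeted gene can still come from the donor strain, and genes there can differ between the lines for that reason alone. For this reason genes on chromosome 2, which holds Lcn2, and on chromosome 5, where many differences were located, were kept apart from the rest of the genome. Chromosome 5 was set apart with earlier results of these data known, so its share of the differences is a description. Whether any stretch on either chromosome is of donor origin was not tested. The comparison asked which genes separated injured livers of both genotypes.

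Hepatocyte identity was checked first with 15 marker genes, whose mean log2 signal lay between 18.15 and 18.31 on WT CCl4 arrays and between 18.1 and 18.43 on Lcn2-/- CCl4 arrays. On the 9 arrays 52.3 to 60.9% of spots were well above background. The arrays lay on slides with an upper and a lower tier. All 4 Lcn2-/- CCl4 arrays and all 3 Lcn2-/- control arrays lay in lower tiers, and all 4 WT control arrays in an upper tier. WT CCl4 2 to 5 shared slide 2 with the Lcn2-/- CCl4 arrays, above them, whereas WT CCl4 1 lay in the lower tier of slide 1 beside the Lcn2-/- controls. WT CCl4 1 was thus the single array in which tier and genotype parted, and it also lay on another slide than the other CCl4 arrays. The mean of the negative control spots in the top 20 rows was above that of the other rows on Lcn2-/- CCl4 2, 3 and 4 (27.96 against 19.96, 46.5 against 20.4 and 30.8 against 16.1) and below it on Lcn2-/- CCl4 1 (16.2 against 17.5) and WT CCl4 1 (24.95 against 27.9). Among the genes that differed under CCl4, 8 have their probe in those rows, and those of them named below are marked.

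Lcn2 itself was lower in the animals labelled as knockouts. On the log2 scale of the quantile-normalized signal, which is used for all values below, its probe on chromosome 2 (chr2:32240199-32240258, mm9) measured 14.38, 16.48, 15.07, 14.22 and 14.27 on WT CCl4 1 to 5 and 12.25, 10.61, 11.59 and 11.80 on Lcn2-/- CCl4 1 to 4. All Lcn2-/- arrays were below all WT arrays, and each was still well above background. The difference was −3.32 (SE 0.668, limma adjusted p 0.0401) in injured livers and −4.14 (limma adjusted p 0.0211) in controls. Whether the probe lies inside the deleted part of the gene was not analysed here. The call in injured livers was close to the threshold. Of the 16 fits that left out 1 array 13 did not pass, and the highest limma adjusted p among them was 0.109. With the array's column on the slide as a block the call was lost too.

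**Figure D1:**
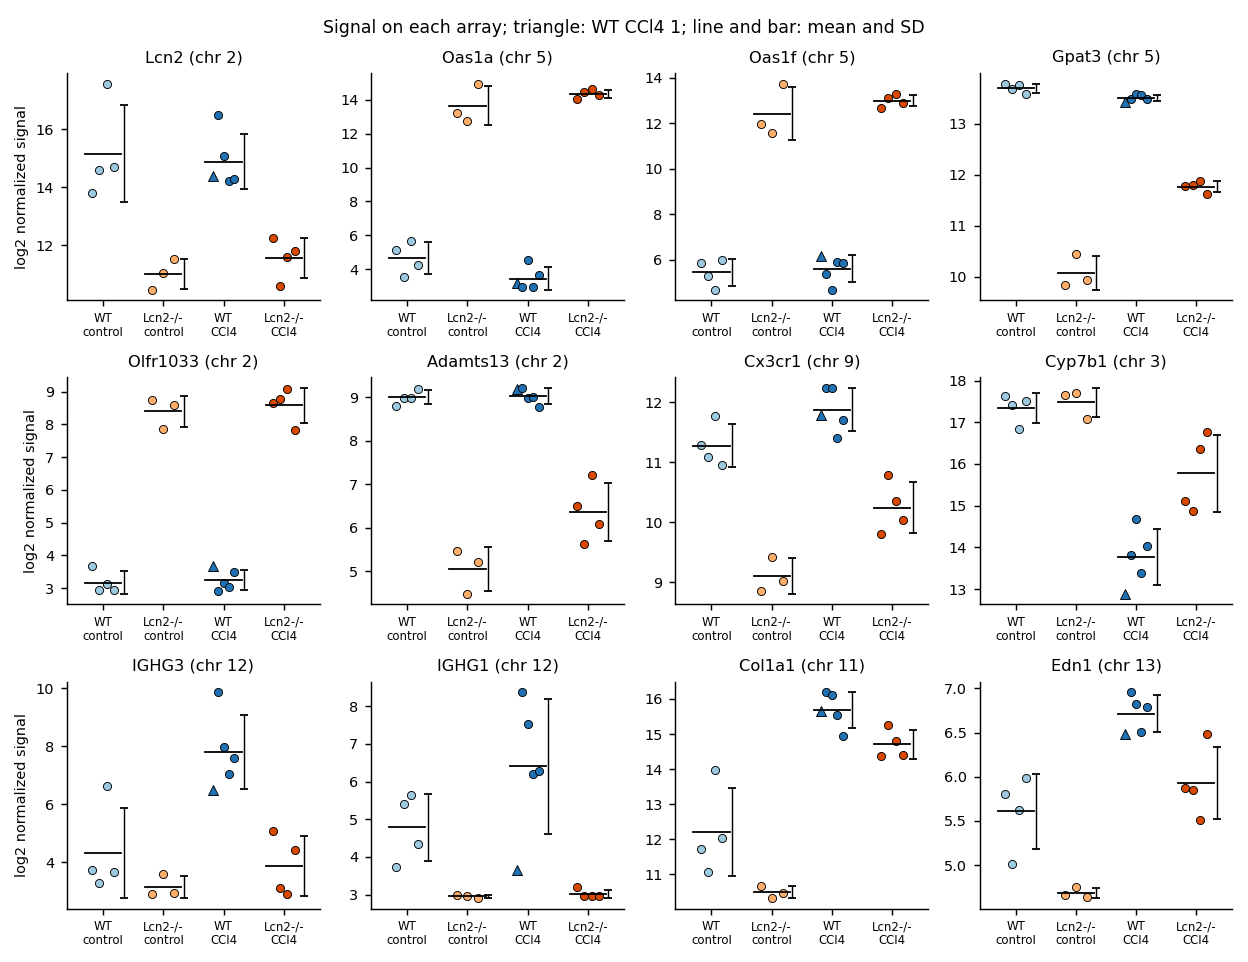
Log2 normalized signal of 12 genes on each of the 16 arrays, by genotype and treatment; lines and bars are the mean and SD, and the triangle is WT CCl4 1. Lcn2-/- CCl4 arrays lie at 14.06 to 14.61 for Oas1a against 2.96 to 4.53 in WT CCl4, while for IGHG1 the triangle at 3.64 lies apart from the other WT CCl4 arrays at 6.19 to 8.38.

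Of 24356 genes tested, 155 differed between Lcn2-/- and WT under CCl4 (0.636%; limma with Benjamini-Hochberg, adjusted p under 0.05). Lcn2-/- livers were higher for 74 of them (0.304%) and lower for 81 (0.333%), and 105 had measured values at least 2-fold apart, with no bound applied to dim probes. The count fell to 76 without WT CCl4 2 and to 76 without Lcn2-/- CCl4 3, and was 130 without WT CCl4 1. In 150 of the 155 the 4 and 5 arrays did not overlap, against 5.67% of all genes tested, and this share follows from the choice of the genes. On chromosome 2, 33 of 1838 genes differed (1.8%), 21 higher and 12 lower. Chromosome 5 held 32 of 1484 (2.16%), 12 higher and 20 lower. On all other chromosomes together 90 of 21034 differed (0.428%), 41 higher and 49 lower. This class also counts the genes that had no position, Npn2 among them, whose chromosome is not known here. Among the other autosomes and chromosome X taken singly the share ran from 0.137% to 1.11%, with chromosome 18 at the top and 8 of 911 genes (0.878%) on chromosome 12.

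Neither chromosome carried its differences evenly, and the share near Lcn2 was not above that of the rest of chromosome 2. Within 10 Mb of the Lcn2 probe 5 of 343 other genes differed (1.46%), against 27 of 1494 (1.81%) farther along the chromosome. Outside chromosomes 2 and 5 the share was 0.428%. The 5 lay between 26.8 and 30.0 Mb, on 1 side of Lcn2 at 32.2 Mb. Between 20 and 40 Mb, where Lcn2 lies, 6 of 352 differed (1.7%). Between 60 and 80 Mb the share was 8 of 144 (5.56%) and between 80 and 100 Mb it was 7 of 159 (4.4%). In contrast, 0 genes differed between 0 and 20 Mb, between 40 and 60 Mb and between 100 and 140 Mb. Chromosome 5 had 8 of 121 (6.61%) between 60 and 80 Mb and 15 of 282 (5.32%) between 100 and 120 Mb, the window that holds Sparcl1, Gpat3 and the zinc finger gene Zfp33b.

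The sizes differed between classes as well. The median absolute difference of the genes that passed was 1.54 on chromosome 2, 1.61 on chromosome 5 and 1.11 elsewhere, values that describe genes chosen for this contrast. In corn oil controls 129 genes differed by genotype (0.53%), on other animals. The CCl4 and control comparisons share no array, although both set lower-tier Lcn2-/- arrays against mostly or wholly upper-tier WT arrays. Of the chromosome 2 genes 18 of 33 passed in controls too (54.5%), which is 72% of the 25 chromosome 2 genes called there. Of the chromosome 5 genes 20 of 32 did so (62.5%, and 80% of the 25 called in controls). Elsewhere 19 of 90 passed in controls (21.1%, and 24.1% of the 79 called there).

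**Figure D2:**
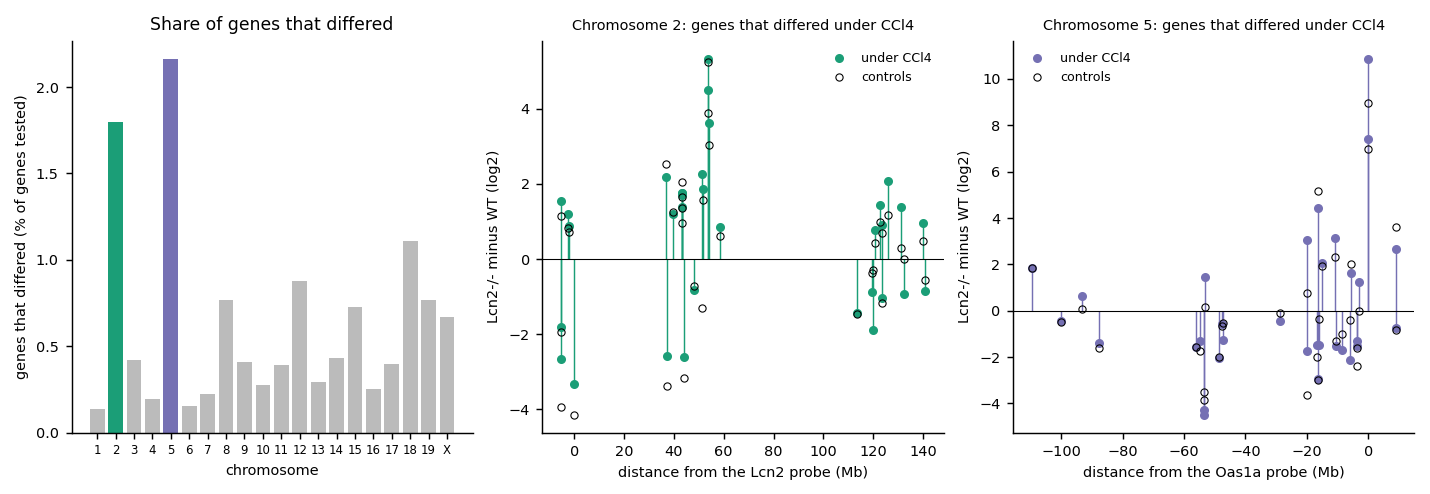
Left, share of genes tested on each chromosome that differed between Lcn2-/- and WT under CCl4 (%). Middle and right, log2 difference of each such gene on chromosomes 2 and 5 by distance from the Lcn2 and the Oas1a probe (Mb), under CCl4 (filled) and in controls (open); chromosomes 2 and 5 stand at 1.8% and 2.16%, and the Oas1a and Oas1f pair is the tallest on chromosome 5.

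The position of WT CCl4 1 was then read on genes chosen without it. Leaving it out of the fit, 130 genes differed (0.534%), and on each of them the Lcn2-/- CCl4 mean was set to 0 and the mean of WT CCl4 2 to 5 to 1. WT CCl4 1 had a median position of 0.997 on the 23 chromosome 2 genes and 0.94 on the 28 chromosome 5 genes. It lay nearer WT for 20 of 23 and for 23 of 28. On the 79 other genes its median position was 0.627, and it lay nearer WT for 44 (55.7%) and nearer Lcn2-/- for 35.

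The same reading was made for each upper-tier WT CCl4 array on genes chosen without that array. Their median positions on genes outside chromosomes 2 and 5 were 1.03, 0.977, 0.894 and 0.808 for WT CCl4 2 to 5, all above the 0.627 of WT CCl4 1. On chromosome 2 they ran from 0.872 to 1.08 and on chromosome 5 from 0.926 to 1.01. By median position WT CCl4 1 thus lay among the other WT arrays on chromosomes 2 and 5 and below them on the rest. By the share of genes nearer WT it was the lowest on chromosome 2 (87% against 88% to 100%) and on chromosome 5 (82.1% against 88% to 100%) as well. Tier and slide cannot be told apart in this array.

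Calls in controls were then counted by the side on which WT CCl4 1 lay, beside the 0.53% of all genes tested that passed in controls. Of the 44 other-chromosome genes nearer WT, 16 passed in controls (36.4%), against 1 of 35 (2.86%) of those nearer Lcn2-/-. The difference between these shares was not tested. For chromosome 2 the counts were 16 of 20 and 0 of 3, and for chromosome 5 18 of 23 and 0 of 5. With slide tier as a term in the model, which leaves the genotype difference under CCl4 resting on WT CCl4 1, 79 genes differed (0.324%), and 31 of them were among the 155.

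**Figure D3:**
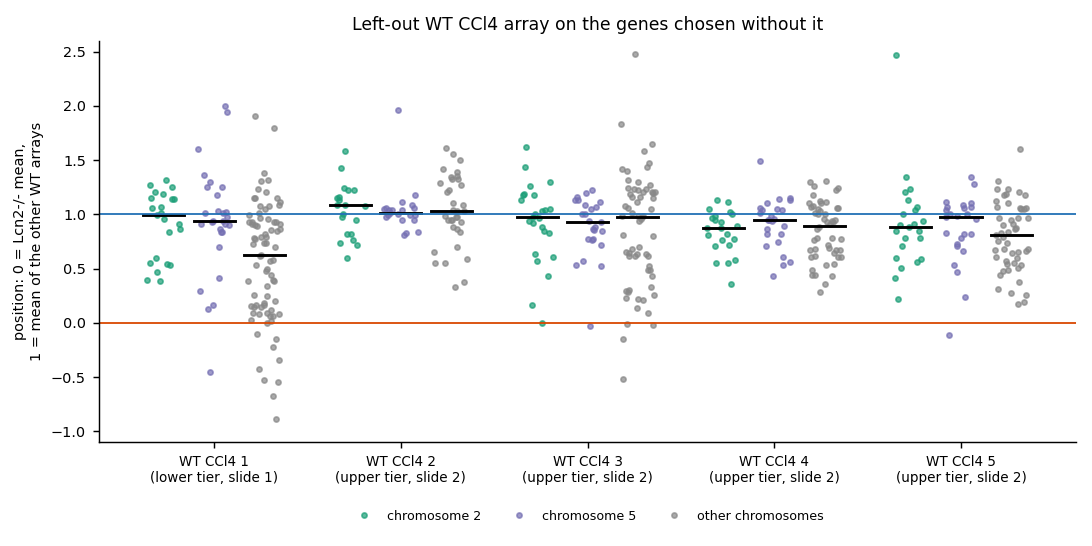
Position of each WT CCl4 array, left out in turn, on the genes that differed without it; 0 is the Lcn2-/- CCl4 mean, 1 the mean of the other WT CCl4 arrays, each point a gene and each bar a median. The bar of WT CCl4 1 for other chromosomes (0.627) lies below those of the 4 upper-tier arrays (0.808 to 1.03), while its bars for chromosomes 2 and 5 are at 0.997 and 0.94.

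On chromosome 5 the largest differences were in the oligoadenylate synthetase genes Oas1a and Oas1f, which are interferon-induced and whose active members make the signal that switches on RNase L against viral RNA. Oas1a measured 3.18, 2.96, 4.53, 2.96 and 3.67 on WT CCl4 1 to 5 and 14.06, 14.43, 14.61 and 14.28 on Lcn2-/- CCl4 1 to 4. On no WT CCl4 array was this probe well above background, so the difference is a lower bound. Against the dimmest spot well above background on each array, or the probe's own signal where higher, Oas1a was at least 730-fold higher in Lcn2-/- (limma adjusted p 1.4e-08). Oas1f measured 6.18, 5.38, 4.68, 5.91 and 5.86 in WT CCl4 and 12.69, 13.11, 13.27 and 12.91 in Lcn2-/- CCl4. It was higher by 7.39 (SE 0.416, limma adjusted p 2.05e-07), and by 6.97 in controls. For both genes WT CCl4 1 lay far from the Lcn2-/- arrays.

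The rest of the family and interferon-induced genes elsewhere were read beside the pair. Of 10 oligoadenylate synthetase genes tested, 2 passed, both named above, 9 were positive, 6 were positive at an unadjusted p under 0.05, and the median difference of the 10 was 0.78. Of all genes 0.304% passed as higher and 6.78% were positive at an unadjusted p under 0.05. The probes of Oas1a (chr5:121346735-121346794) and Oas1f (chr5:121307929-121307988, both mm9) lie in the same gene cluster, whose members are close copies, and how far each probe binds RNA of the other copies was not tested. Of 38 other interferon-stimulated genes, 0 passed by limma, 0 had an unadjusted p under 0.05 and 36 had a negative difference, with a median of −0.39. That median was 0.16 against WT CCl4 1 and −0.56 against WT CCl4 2 to 5.

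The promoters of the pair are shown because interferon-induced genes often carry the letters GAAANNGAAA, the core of the element bound by interferon-activated factors. These are RefSeq sequences of build GRCm38.p6, from 250 bases before to 50 after the gene's start, 5′ to 3′ on the gene's strand, with matches on either strand in capitals. Oas1a (chr5:120907476-120907775, minus strand) has 2 overlapping matches and Oas1f (chr5:120847117-120847416, plus strand) has 0. Of 32851 mouse promoters of the same length 1131 (3.44%) hold the letters. A match is a description of the reference genome, not of these animals, and is not a binding site by itself.
Oas1a promoter: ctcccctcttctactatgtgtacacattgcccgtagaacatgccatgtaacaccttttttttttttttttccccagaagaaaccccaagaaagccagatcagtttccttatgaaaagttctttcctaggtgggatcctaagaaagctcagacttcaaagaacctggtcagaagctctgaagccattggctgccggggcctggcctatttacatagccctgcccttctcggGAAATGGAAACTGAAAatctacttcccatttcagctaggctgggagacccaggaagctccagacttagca
Oas1f promoter: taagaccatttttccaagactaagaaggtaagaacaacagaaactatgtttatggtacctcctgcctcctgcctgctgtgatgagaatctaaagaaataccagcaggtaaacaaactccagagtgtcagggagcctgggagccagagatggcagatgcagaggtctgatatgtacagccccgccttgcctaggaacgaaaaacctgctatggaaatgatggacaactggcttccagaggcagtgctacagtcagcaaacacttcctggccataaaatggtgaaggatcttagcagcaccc

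Zfp33b, a predicted zinc finger gene, had the lowest adjusted p of all genes. It measured 2.89, 2.93, 2.92, 2.98 and 2.92 in WT CCl4, at the floor of the array, and 7.64, 7.33, 7.31 and 7.22 in Lcn2-/- CCl4. It was at least 5.84-fold higher (limma adjusted p 6.69e-11, computed from the WT values at the floor and not from this bound). Its probe (chr5:105011519-105011578, mm9, plus strand) is shown as an example of a transcript that was at the floor of the array in every WT liver and well above background in every Lcn2-/- liver.
Zfp33b probe: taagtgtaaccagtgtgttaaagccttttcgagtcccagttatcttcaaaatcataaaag

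Gpat3, which encodes the enzyme that adds the first acyl chain to glycerol phosphate in triglyceride synthesis, was lower in Lcn2-/-. It measured 13.42, 13.49, 13.57, 13.56 and 13.48 in WT CCl4 and 11.78, 11.79, 11.88 and 11.61 in Lcn2-/- CCl4. These groups lay far apart relative to their spread. The difference was −1.74 (SE 0.117, limma adjusted p 1.28e-06). In controls the gap was wider, with 13.78, 13.67, 13.75 and 13.58 in WT and 9.83, 10.44 and 9.93 in Lcn2-/-, a difference of −3.63 (limma adjusted p 9.64e-10). The interaction, the difference under CCl4 minus that in controls, was 1.89 (limma adjusted p 0.000299). WT levels moved little between treatments while Lcn2-/- levels were higher under CCl4.

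Sparcl1, a matrix-associated relative of osteonectin, measured 15.77, 15.77, 15.49, 15.50 and 15.29 in WT CCl4 and 13.75, 14.21, 14.36 and 13.98 in Lcn2-/- CCl4. Its difference was −1.49 (limma adjusted p 0.0018), and −1.99 in controls. With the tier term it was −1.70 and did not pass (limma adjusted p 0.0614). Further genes that were lower on this chromosome were Atp10d, a phospholipid flippase (−2.02, limma adjusted p 9.5e-05), the noncoding D930016D06Rik (−2.95) and a pair of overlapping lincRNA transcripts near 67.9 Mb, at least 3.70-fold and 4.21-fold lower, which share their locus. Also higher were a lincRNA near 110.5 Mb (at least 2.77-fold) and 4930458D05Rik (at least 2.35-fold), whose probe lies close to that of Gpat3. In controls 4930458D05Rik did not pass (limma adjusted p 0.451) and was not above background in either genotype.

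Genes chosen after their values were seen were the Toll-like receptor Tlr6 (−1.57, limma adjusted p 0.0279), the matrix protein Spon2 (−1.40, limma adjusted p 0.0198) and a beta-glucuronidase transcript at 130.5 Mb. That transcript measured 6.88 to 8.01 in WT CCl4 and 9.55 to 10.65 in Lcn2-/- CCl4, a difference of 2.65 (limma adjusted p 0.000169). The noncoding 1500011B03Rik measured 11.26, 10.49, 10.35, 10.55 and 11.23 in WT CCl4 and 8.28, 8.45, 8.70 and 9.20 in Lcn2-/- CCl4. Its difference was −2.12 (limma adjusted p 0.0011), against −0.39 in controls (limma adjusted p 0.918). The interaction for this gene did not pass the threshold. A further probe of 1500011B03Rik, well above background on all 16 arrays, differed by −0.53 (limma unadjusted p 0.0263), the same direction at a smaller size.

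On chromosome 2 Lcn2-/- livers gave signal on probes of 3 neighbouring olfactory receptor genes near 86 Mb, which belong to a large family expressed mainly in the nose. Olfr1033 measured 3.66, 2.92, 3.14, 3.03 and 3.50 in WT CCl4 and 8.65, 8.79, 9.08 and 7.83 in Lcn2-/- CCl4. Olfr1036 measured 5.24, 2.92, 2.92, 2.92 and 2.92 in WT CCl4 and 7.98, 8.02, 8.28 and 7.27 in Lcn2-/- CCl4. Olfr1052 lay at 2.90 to 2.91 in WT CCl4 and at 6.5, 6.43, 6.89 and 6.26 in Lcn2-/- CCl4. On no WT CCl4 array was a signal of these probes well above background, and WT CCl4 1 was the highest WT array for Olfr1036. The bounds were at least 13.5-fold (limma adjusted p 4.77e-08), 8.32-fold (limma adjusted p 5.28e-05) and 3.22-fold (limma adjusted p 2.81e-10). In controls, where WT was likewise not above background, they were at least 8.98-fold, 2.99-fold and 1.65-fold higher. A further probe of Olfr1052, which overlaps the one tested, was well above background on 0 of the 16 arrays, so the probes of this gene disagree.

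The probes of the 3 receptors (Olfr1033 chr2:85882347-85882406, Olfr1036 chr2:85915771-85915830, Olfr1052 chr2:86138819-86138878, all mm9, plus strand) are given because members of this family resemble each other, and which family members each probe binds was not tested.
Olfr1033 probe: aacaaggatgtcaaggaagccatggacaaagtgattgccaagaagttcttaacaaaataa
Olfr1036 probe: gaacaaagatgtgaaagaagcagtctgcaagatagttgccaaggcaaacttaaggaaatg
Olfr1052 probe: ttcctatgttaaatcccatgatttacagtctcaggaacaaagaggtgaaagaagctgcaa

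Adamts13, the protease that cleaves von Willebrand factor and is made by hepatic stellate cells, moved in opposite directions on its 2 probes. On the brighter probe it measured 9.18, 9.22, 8.98, 9.0 and 8.77 in WT CCl4 and 6.51, 5.64, 7.22 and 6.09 in Lcn2-/- CCl4, a difference of −2.66 (limma adjusted p 0.000117). In controls, where the Lcn2-/- signal was not above background, it was at least 10.4-fold lower. On the other probe it measured 2.90, 2.89, 4.25, 2.88 and 2.88 in WT CCl4 and 8.49, 8.17, 8.72 and 8.38 in Lcn2-/- CCl4, at least 12.2-fold higher. No direction for the gene as a whole can be given. The brighter probe lies at chr2:26852318-26852377 and the other at chr2:26862185-26862244 (mm9, plus strand), so they read separate stretches of the transcript. Of 59 further probes for 37 genes that differed, 49 had the direction of the probe tested and 10 the opposite, and of the 10 this one alone had an unadjusted p under 0.05. A further 28 probes were clear of background on fewer than 3 arrays and are not in this count. Among them were probes of Olfr1052, Vipr2 and the predicted Ighg transcript described below.
Adamts13 brighter probe: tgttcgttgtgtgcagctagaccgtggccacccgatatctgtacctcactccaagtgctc
Adamts13 other probe: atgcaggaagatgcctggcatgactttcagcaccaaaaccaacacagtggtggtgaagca

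Lrp2, which encodes megalin, an endocytic receptor that binds lipocalin 2, measured 7.23, 6.74, 5.66, 5.31 and 6.81 in WT CCl4 and 8.16, 8.15, 8.69 and 9.11 in Lcn2-/- CCl4. Lcn2-/- arrays were above all WT arrays. The difference was 2.18 (SE 0.455, limma adjusted p 0.0473) and 2.53 in controls (limma adjusted p 0.047), and 13 of the 16 fits without 1 array did not pass. WT CCl4 1 was the highest WT array for Lrp2, and with the tier term the difference was 1.30. A predicted RNA-binding protein gene, LOC100046877, was lower by a log2 difference of −2.62 (limma adjusted p 7.04e-06) and the coiled-coil gene Ccdc173 was at least 2.85-fold lower. Defb22, a beta-defensin, passed (limma adjusted p 0.0439) with too little signal for a fold, and 12 of the 16 fits without 1 array lost it.

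Metabolic genes of this chromosome, chosen after their values were seen, included Ahcy, which hydrolyses S-adenosylhomocysteine. It measured 14.57, 14.55, 14.89, 15.09 and 14.90 in WT CCl4 and 16.35, 16.09, 16.40 and 16.09 in Lcn2-/- CCl4, a difference of 1.43 (limma adjusted p 0.00433). Its 2 further probes differed by 0.62 and 0.71 (limma unadjusted p 0.249 and 0.178). Pdk1, an inhibitory kinase of pyruvate dehydrogenase, differed by 1.20 (limma adjusted p 0.00125), and Coq4, needed for coenzyme Q synthesis, by 1.21 (limma adjusted p 0.000586). Adamtsl2, a secreted protein of microfibrils, differed by −1.82 (limma adjusted p 0.000958). All 4 had differences of the same sign in controls, from −1.94 to 1.24.

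Outside chromosomes 2 and 5 the genes that were lower in Lcn2-/- included immunoglobulin gamma heavy chain transcripts, the products of class-switched B cells and plasma cells. The IGHG3 probe measured 6.5, 9.88, 7.98, 7.06 and 7.60 in WT CCl4 and 5.07, 3.11, 2.91 and 4.43 in Lcn2-/- CCl4. The IGHG1 probe measured 3.64, 8.38, 7.54, 6.19 and 6.28 in WT CCl4 and 3.19, 2.95, 2.96 and 2.97 in Lcn2-/- CCl4. The IGHG2C probe measured 6.03, 9.40, 8.27, 7.45 and 8.44 in WT CCl4 and 5.58, 5.42, 5.46 and 5.55 in Lcn2-/- CCl4. WT CCl4 1 was the lowest WT array on each of these probes. IGHG3 was at least 5.61-fold lower (limma adjusted p 0.03), IGHG1 at least 2.13-fold lower (limma adjusted p 0.0459), and IGHG2C, well above background on 2 of the 4 Lcn2-/- arrays, differed by −2.41 (limma adjusted p 0.0385). These calls were close to the threshold, and of the 16 fits without 1 array 5 lost IGHG3, 14 lost IGHG1 and 13 lost IGHG2C. With the array's column on the slide as a block IGHG3 and IGHG2C did not pass. A predicted gamma chain transcript described as Ighg, the name used for it here, was at least 6.89-fold lower (limma adjusted p 0.00472). It went from 5.75, 9.15, 8.76, 8.12 and 8.72 in WT CCl4 to 3.78, 3.29, 5.03 and 3.66 in Lcn2-/- CCl4. A further probe of this transcript was well above background on 0 of the 16 arrays. A separate gene with the symbol Ighg and no position did not pass (limma adjusted p 0.0589) and was not above background in Lcn2-/- CCl4.

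The gamma chain genes are close copies on chromosome 12, and the probes that carry this difference are given so that their overlap can be judged. All are on the minus strand of mm9, at chr12:114597942-114598001 (IGHG3), chr12:114567263-114567322 (IGHG1), chr12:114525600-114525659 (IGHG2C) and chr12:114544738-114544797 (Ighg).
IGHG3 probe: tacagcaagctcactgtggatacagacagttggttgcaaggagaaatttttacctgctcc
IGHG1 probe: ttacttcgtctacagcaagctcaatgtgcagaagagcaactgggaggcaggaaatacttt
IGHG2C probe: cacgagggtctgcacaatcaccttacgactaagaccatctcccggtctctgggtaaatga
Ighg probe: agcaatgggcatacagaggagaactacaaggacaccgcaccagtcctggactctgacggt

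The immunoglobulin genes as a group were assembled after their values were seen. Of 55 tested, 45 had a negative difference, 4 were called lower and 0 higher by limma (23 and 0 at an unadjusted p under 0.05, against 0.333% of all genes called lower and 6.92% lower at an unadjusted p under 0.05). The median was −0.935, against a median of 7.8e-05 over all genes tested and of −0.25 for the same 55 in controls. Among the 55, 7 entries were described as gamma heavy chain, and they are not 7 separate observations. The probes of BC019489 (chr12:114525496-114525555) and IGHG2C lie side by side. LOC630296 (chr12:114984413-114984474) lies apart from the other placed entries and differed by 0.107. The median of the 7 was −3.22. Against WT CCl4 2 to 5 that median was −3.93, and against WT CCl4 1, the array of the same tier, it was −0.524. The 3 lambda constant region genes went the other way, with −0.817 against WT CCl4 2 to 5 and −1.90 against WT CCl4 1. The joining chain gene differed by −1.27 (limma adjusted p 0.138). Of 11 other B cell and plasma cell genes, 0 had an unadjusted p under 0.05 and 0 were called by limma, with a median of −0.236. With a term for slide tier, which leaves these differences resting on WT CCl4 1, IGHG3, IGHG1, IGHG2C and Ighg did not pass (limma adjusted p 0.552, 0.851, 0.808 and 0.455).

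Among other negative differences was Cx3cr1, the fractalkine receptor of monocytes and macrophages. It measured 11.78, 12.23, 12.24, 11.41 and 11.70 in WT CCl4 and 9.81, 10.78, 10.35 and 10.04 in Lcn2-/- CCl4. The groups did not overlap, and WT CCl4 1 lay within the range of the other WT arrays. The difference was −1.63 (SE 0.234, limma adjusted p 0.00371) and −2.17 in controls (limma adjusted p 0.000693). With a term for slide tier it was −1.53 and did not pass (limma adjusted p 0.179). LOC100048875, a predicted transcript whose probe overlaps that of Cx3cr1, differed by −1.68, and since both read the same place they are not separate observations, although each is counted among the 155. Mas1, the receptor of angiotensin-(1-7), was chosen after its values were seen and differed by −1.55 (limma adjusted p 0.0153), from 9.40 to 10.60 in WT CCl4 and 7.70 to 8.83 in Lcn2-/- CCl4.

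Tubb2a, a beta-tubulin, measured 15.29, 16.44, 15.87, 15.11 and 14.82 in WT CCl4 and 14.26, 13.68, 13.67 and 13.40 in Lcn2-/- CCl4 (−1.75, limma adjusted p 0.0492). The transcription factor gene Zbtb7c differed by −1.88 (limma adjusted p 0.0304) and was well above background on 1 of the 4 Lcn2-/- arrays. The uncharacterised 2900073C17Rik passed (limma adjusted p 0.0439) with too little signal for a fold. Vipr2, a receptor of vasoactive intestinal peptide, was at least 1.23-fold lower (limma adjusted p 0.0376), and its probe lies in the top rows of the array. Its 2 further probes were well above background on 1 and 0 of the 16 arrays. The tubulin values of WT CCl4 1 lay inside the WT range. Of the 16 fits without 1 array 12 lost Tubb2a, 12 lost Vipr2, 12 lost 2900073C17Rik and 5 lost Zbtb7c. Tubb2a, Vipr2 and 2900073C17Rik also did not pass with the array's column on the slide as a block.

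Cyp7b1 and Sult5a1 were higher in Lcn2-/- CCl4 livers. Cyp7b1, the oxysterol hydroxylase of the alternative bile acid pathway, measured 12.88, 13.82, 14.67, 13.39 and 14.04 in WT CCl4 and 15.11, 14.87, 16.35 and 16.76 in Lcn2-/- CCl4. Control livers lay higher and overlapped between genotypes, at 16.83 to 17.64 in WT and 17.08 to 17.70 in Lcn2-/-. The difference was 2.01 in injured livers (SE 0.404, limma adjusted p 0.0401) and 0.13 in controls, with an interaction of 1.88 that did not pass after adjustment. The sulfotransferase gene Sult5a1 measured 7.67, 9.70, 10.32, 9.74 and 9.67 in WT CCl4 and 11.43, 11.84, 12.99 and 12.83 in Lcn2-/- CCl4, a difference of 2.85 (limma adjusted p 0.0334). For both genes WT CCl4 1 was the lowest WT array, farther from Lcn2-/- than the upper-tier WT arrays. Without WT CCl4 1 the differences were 1.79 for Cyp7b1 (limma adjusted p 0.0757) and 2.41 for Sult5a1 (limma adjusted p 0.0381), and of the 16 fits without 1 array 11 lost Cyp7b1 and 5 lost Sult5a1. With the array's column on the slide as a block neither gene passed.

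Further genes that were higher on these chromosomes included transcripts with no known role. Gm3185 differed by 4.18, a lincRNA near 118 Mb of chromosome 3 by 4.10 and a predicted transcript at 8.9 Mb of chromosome X by 3.98, the first well above background on 2 of the 5 WT CCl4 arrays and the second on 3. A further probe of the lincRNA differed by −0.10 (limma unadjusted p 0.802), so its probes disagree. Gm3185, the lincRNA by its first probe and the chromosome X transcript passed in controls too, where that lincRNA probe was at least 19-fold higher and the chromosome X transcript differed by 4.35. BC026762 (3.04), Gm7967 (2.19) and a lincRNA near 23.1 Mb of chromosome 6 (2.03) behaved likewise. Npn2, which had no position and could lie on any chromosome, was at least 2.51-fold higher. Gm3297, with its probe in the top rows, was at least 2.65-fold higher. Neither Npn2 nor Gm3297 passed in controls. Gm3297 did not pass in 9 of the 16 fits that each left out 1 array. The insulin receptor substrate gene Irs2, chosen after its values were seen, measured 10.67 to 11.69 in WT CCl4 and 11.89 to 12.71 in Lcn2-/- CCl4. Its difference was 1.04 in injured livers (limma adjusted p 0.0343) and −0.32 in controls (limma adjusted p 0.888).

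Matrix genes were described by lists, beside the background of 0.636% called, a median of 7.8e-05 and an unadjusted p under 0.05 for 13.7% of all genes, 1686 of them negative and 1652 positive. Of 22 collagen genes 0 passed by limma, 20 had a negative difference, 5 had an unadjusted p under 0.05, all negative, and the median was −0.36. Of 46 matrix glycoproteins and proteoglycans 37 were negative, with a median of −0.28 and 13 negative at an unadjusted p under 0.05, and Sparcl1 was the 1 that passed. Of 34 matrix turnover genes 27 were negative (median −0.35), and Adamts13, whose probes disagree, was the 1 that passed. These medians were −0.37, −0.33 and −0.37 against WT CCl4 1 and −0.39, −0.27 and −0.39 against WT CCl4 2 to 5. The same medians in controls were −0.45, −0.43 and −0.41.

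Matrix genes that did not pass, chosen after their values were seen, included Thbs4, a thrombospondin, at −3.49 (limma adjusted p 0.0733). Mfap4, a microfibril protein, was at −1.08 (limma adjusted p 0.0892) and the collagen-degrading cathepsin Ctsk at −1.75 (limma adjusted p 0.104). Of 24 stellate cell and myofibroblast genes 0 passed by limma and 19 were negative, with a median of −0.22 and 3 at an unadjusted p under 0.05. Of 21 integrins 0 passed, with a median of −0.22 and 3 at an unadjusted p under 0.05. Over all genes tested 13.7% had such a p, so these counts of stellate cell and integrin genes lie near the background.

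Inflammatory lists leaned to negative values with few single genes past the threshold. Of 17 neutrophil genes 14 were negative (median −0.82), 0 passed by limma, 0 had an unadjusted p under 0.05, and 6 (35.3%) had all Lcn2-/- arrays below all WT arrays, against 3.27% of all genes. The calprotectin genes S100a8 and S100a9 measured −0.89 and −0.88. Of 28 Kupffer cell and macrophage genes 23 were negative (median −0.56) and 0 passed, with 2 at an unadjusted p under 0.05. Of 30 chemokines and receptors 25 were negative (median −0.53) and Cx3cr1 passed, and of 22 lymphocyte genes 18 were negative (median −0.35) and 0 passed, with 1 at an unadjusted p under 0.05. In controls these medians were 0.089 for neutrophil, −0.20 for macrophage, −0.83 for chemokine and −0.70 for lymphocyte genes.

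For several of these lists WT CCl4 1 lay with the Lcn2-/- arrays. Against WT CCl4 1 alone the median was 0.19 for chemokines and receptors, 0.25 for lymphocyte genes and −0.18 for macrophage genes, compared with −0.70, −0.48 and −0.62 against WT CCl4 2 to 5. The neutrophil median was −0.68 against WT CCl4 1 and −0.77 against the others, so it did not change sign. Among controls, WT control 3 and Lcn2-/- control 3 stood apart, with mean neutrophil gene levels of 9.85 and 10.32 against 7.37 to 8.24 on the other 5 and mean levels of the interferon-stimulated genes of 13.56 and 13.25 against 11.71 to 12.33. Both arrays enter the error shared by the 4 groups, and 187 genes differed under CCl4 without WT control 3 and 171 without Lcn2-/- control 3. Cell cycle genes had 29 of 32 negative with a median of −0.82, and 11 (34.4%) had all Lcn2-/- arrays below all WT arrays, but 0 passed by limma and 9 had an unadjusted p under 0.05. Their median was −2.3 against WT CCl4 1 and −0.50 against WT CCl4 2 to 5, and WT CCl4 1 had the highest mean level of these genes, 11.02, against 9.21 to 10.14 on the other WT arrays and 8.93 to 9.32 on Lcn2-/- arrays. In controls the median of the cell cycle genes was −0.65.

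**Figure D4:**
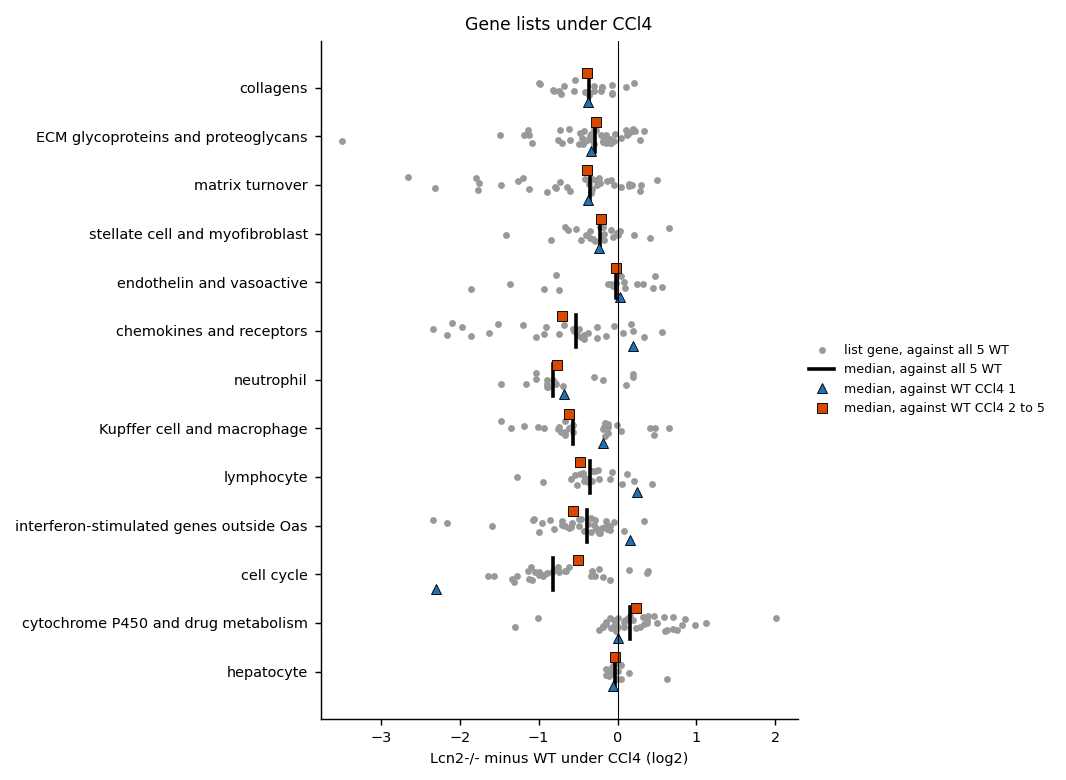
Log2 difference between Lcn2-/- and WT under CCl4 for the genes of 13 lists (grey points) with their median (bar), and the list medians against WT CCl4 1 alone (triangles) and against WT CCl4 2 to 5 (squares). Triangle and square nearly coincide for collagens (−0.37 and −0.39) and lie far apart for cell cycle genes (−2.3 and −0.50).

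Hepatocyte metabolism differed in single genes. The 15 hepatocyte markers had a median of −0.037, with Alb at −0.06 and Cyp2e1, the enzyme that activates CCl4, at −0.03 (SE 0.094), and 0 of them passed by limma, with 1 at an unadjusted p under 0.05. Of 44 cytochrome P450 and drug metabolism genes 28 were positive (median 0.16), and Cyp7b1 passed. At an unadjusted p under 0.05 there were 10 positive, against 6.78% of all genes tested. The median of the 44 was 0.0078 against WT CCl4 1 and 0.24 against WT CCl4 2 to 5. Of 34 glutathione, glucuronosyl and sulfo transferase genes 25 were positive (median 0.084) and Sult5a1 passed. Of 41 glycerolipid and fatty acid genes 30 were negative (median −0.19), and Gpat3 passed. Of 33 cholesterol and bile acid genes 0 passed, with 4 at an unadjusted p under 0.05, near the 13.7% of all genes. Their median was 0.048, and it changed sign between WT CCl4 1 (−0.21) and WT CCl4 2 to 5 (0.16).

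Median differences of lists for other cell types and responses were 0.0046 for 16 cholangiocyte and progenitor genes, −0.017 for 21 endothelial genes, −0.066 for 23 acute phase genes, −0.0042 for 38 complement and coagulation genes, 0.24 for 17 clock genes and −0.071 for 31 immediate early genes. Of their genes 0, 1, 2, 5, 4 and 3 had an unadjusted p under 0.05 in that order, against 13.7% of all genes. None of these 6 lists had a gene that passed, other than Adamts13 among the coagulation genes. Tissue that could be admixed gave 0.078 for 7 pancreas, −0.31 for 6 adipose and −0.54 for 6 muscle genes, with 0 called by limma and 1, 2 and 1 at an unadjusted p under 0.05. Of 7 erythroid genes all were positive, with a median of 0.42, and the transcription factor gene Klf1 passed (1.03, limma adjusted p 0.0473), a call that 13 of the 16 fits without 1 array lost. The erythroid median was 1.4 against WT CCl4 1 and −0.049 against WT CCl4 2 to 5.

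Genes that the study discusses, some of them from these samples and so not independent of them, were read one by one with an exact permutation test over all splits of the 9 arrays into 4 and 5, two-sided. The smallest p this design allows is 0.00794. Of 16 such genes on the array 15 were tested and read, and Ece2, which the study also names, was not among the 15. Col1a1, the main fibrillar collagen of scar, measured 15.66, 16.20, 16.12, 15.54 and 14.94 in WT CCl4 and 14.37, 15.26, 14.79 and 14.39 in Lcn2-/- CCl4. The groups overlapped, and the difference of −0.99 had an exact p of 0.0317 and a limma adjusted p of 0.357. On slide 2 each Lcn2-/- array lay below the WT array of the same slide column, an arrangement the permutation test does not use. With slide column as a block Col1a1 did not pass either. The Col1a1 difference in controls was −1.71 (limma adjusted p 0.228). Edn1, which encodes the vasoconstrictor endothelin 1, measured 6.48, 6.96, 6.82, 6.51 and 6.79 in WT CCl4 and 5.87, 5.85, 5.51 and 6.48 in Lcn2-/- CCl4. All Lcn2-/- values were at or below the lowest WT value, and the difference of −0.78 (SE 0.207) had an exact p of 0.00794 and a limma adjusted p of 0.122. Edn1 did not pass in 15 of the 16 fits without 1 array, and it passed with array weights. In controls Edn1 measured 5.01 to 5.99 in WT and 4.64 to 4.75 in Lcn2-/-, the latter not well above background. It did not pass there (limma adjusted p 0.127).

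Of the other genes of this set, Acta2, the smooth muscle actin of activated stellate cells, was at −0.66 (exact p 0.238), with its tested probe in the top rows. The metalloproteinase inhibitor Timp1 was at −0.78 (exact p 0.127), Mmp2 at −0.27 (exact p 0.278) and Tgfb1 at 0.01 (exact p 0.96). The endothelin receptor genes Ednra and Ednrb were at −0.08 (exact p 0.516) and 0.47 (exact p 0.0476), the latter with a limma adjusted p of 0.221. Values were 0.32 for Ece1 (exact p 0.754), 0.25 for Agt (exact p 0.492), −0.02 for Hif1a (exact p 0.881), −0.18 for Slc22a17 (exact p 0.341) and 0.42 for Slc22a7 (exact p 0.214). In controls Acta2, Timp1, Mmp2 and Tgfb1 were at −0.68, −0.74, −0.83 and −0.22. Ednra and Ednrb were at −0.40 and −0.29 there. Ece1, Agt, Hif1a, Slc22a17 and Slc22a7 were at 0.08, 0.09, −0.13, 0.02 and 0.05. None of these genes passed by limma in controls. Lcn2 and Lrp2 each had an exact p of 0.00794, and they were the 2 genes that passed by limma among 22 lipocalin 2 partners and iron genes (median −0.045). Of the 17 genes of the endothelin and vasoactive list 0 passed by limma, and the median was −0.022. At an unadjusted p under 0.05 there were 7, 3 positive and 4 negative, against 13.7% of all genes tested.

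Set side by side, the CCl4 and control comparisons gave the same sign for 150 of the 155 genes (96.8%), on separate animals, with the tiers arranged alike apart from WT CCl4 1. By measured values, probes near background included, 56 of the 155 showed at most 50% of their CCl4 difference in controls, 6 on chromosome 2, 8 on chromosome 5 and 42 elsewhere. The interaction passed for 13 genes (0.0534%), of which 2 also passed under CCl4. These were Gpat3, described above, and a lincRNA near 83.5 Mb of chromosome 2. That lincRNA measured 4.69, 2.90, 3.18, 3.82 and 3.49 in WT CCl4, not well above background, and 5.55, 5.48, 6.85 and 5.60 in Lcn2-/- CCl4, at least 2.05-fold higher (limma adjusted p 0.0131). On 0 of the 7 control arrays was it well above background, so no size is given there, and its interaction (limma adjusted p 0.0445) rests in part on those values.

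**Figure D5:**
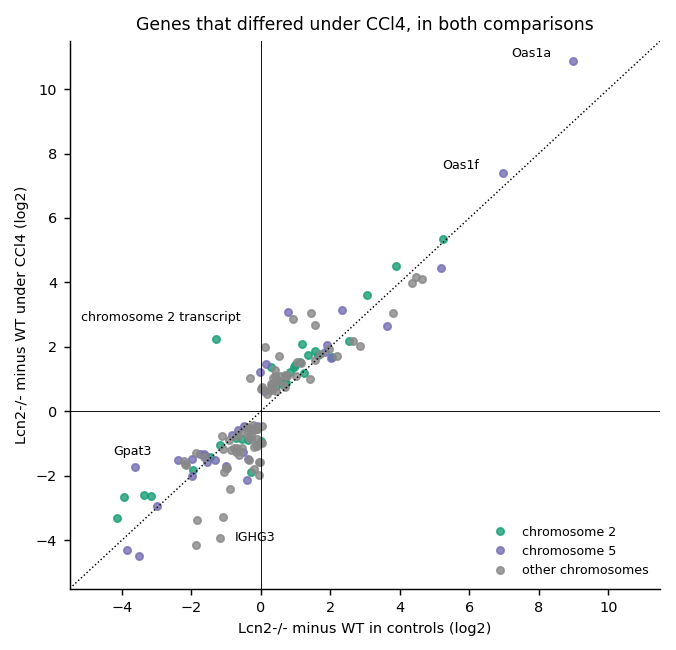
Log2 difference between Lcn2-/- and WT in controls (horizontal) and under CCl4 (vertical) for the 155 genes that differed under CCl4, by chromosome class; the dotted line marks equal differences. 150 of the 155 share their sign; Gpat3 lies above the line at −3.63 and −1.74, and the labelled chromosome 2 transcript was not above background in controls. Values are as measured, with no bound applied.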

How the data were processed

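Whole-liver RNA of 16 animals was measured on Agilent 1-colour arrays, with groups and replicate numbers taken from the sample titles. For each array the authors deposited the linear spot intensity as the image software (Feature Extraction 10.7.3.1) wrote it, not normalized between arrays. A table of log2 values was also deposited, of which 99.86% lay within 0.05 of the log2 median signal minus local background after quantile normalization; it served as an alternative, and its column medians ran from 6.53 to 6.55. The submitters' processing notes name limma.

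Here log2 of the background-subtracted processed signal was quantile normalized over the 16 arrays, without control spots and outlier spots. Spots of a probe were averaged to 55681 probes, and 121 lacking a usable spot were removed. Testing covered the 33022 probes with a signal clear of background on 3 or more arrays, taking the brightest probe for each of 24356 genes. One limma 3.58.1 model in R 4.3.3 covered the 4 groups with no covariate, and p-values were adjusted by the Benjamini-Hochberg method over all genes with a threshold of 0.05. Exact permutation tests used scipy 1.17.1 in Python 3.11.15. Symbols were updated through a RefSeq table of GRCm38.p6 where accessions matched (61.2% of genes), and probe positions are those in the files (mm9). The members and gene lists were chosen with earlier results of these data known. Genes named are Lcn2, the 5 highest and 5 lowest differences on each of chromosomes 2 and 5 and the 10 highest and 10 lowest elsewhere among genes that passed and whose groups did not overlap, list genes that passed, genes that passed both under CCl4 and for the interaction, and genes the study discusses; others are said to be chosen later. The fits were tested on simulated data, of which no result is given here. The study calls the WT mice littermates of the Lcn2-/- mice, and which animals shared a litter or cage is not given in the sources used here. The number of arrays limits the precision, with no saturated spots.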

Additional observations from a re-analysis of the deposited data

Results flagged for a closer look

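Within the groups of CCl4 arrays, 7 of 112 sets of values (56 genes in both groups) held 1 array far from the others, and chance alone gives about 1 in 20. WT CCl4 1 stood apart for Npn2 (3.88, nearest WT array 2.93), Olfr1036 (5.24, nearest 2.92) and Sult5a1 (7.67, nearest 9.67). WT CCl4 3 stood apart for 4930458D05Rik (3.38) and WT CCl4 5 for LOC100046877 (10.62, nearest 11.66). Lcn2-/- CCl4 1 stood apart for IGHG1 (3.19, nearest 2.97) and Lcn2-/- CCl4 3 for the lincRNA near 83.5 Mb of chromosome 2 (6.85, nearest 5.60). For Npn2, Olfr1036, 4930458D05Rik and IGHG1 these values were not well above background.

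The genotype difference under CCl4 differed from that in controls for Gpat3, by 1.89 (limma adjusted p 0.000299), and for the lincRNA near 83.5 Mb of chromosome 2, by 3.54 (limma adjusted p 0.0445), a value that rests in part on control signals not above background and so gives no measured size.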

How the results depend on the processing

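The number of genes that differed under CCl4 moved more than its split by chromosome. Array weights gave 324 genes (142 higher, 182 lower; 52 on chromosome 2, 49 on chromosome 5, 223 elsewhere). A fit of only the 9 CCl4 arrays gave 93 (47 higher, 46 lower, 45 outside chromosomes 2 and 5), of which 70 were among the 155. Slide tier as a term gave 79 (28 higher, 51 lower; 15, 16 and 48 by class). Leaving out 1 array gave 76 to 187 genes, with 39 to 96 higher, 37 to 102 lower, 19 to 34 on chromosome 2, 20 to 35 on chromosome 5 and 35 to 121 elsewhere. The count moved by over 1.5 times without WT CCl4 2 (76), WT CCl4 4 (97), WT CCl4 5 (99), Lcn2-/- CCl4 1 (102) and Lcn2-/- CCl4 3 (76). The cause of these changes was not tested, apart from the fewer arrays in the smaller fits. Scaling to the 75th percentile gave 125, normexp background 197, the values deposited by the authors 193, no filter 118 and slide as a random block 153. Slide as a fixed block equals leaving out WT CCl4 1 for this comparison (130).

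Replicate numbers do not pair these animals. Same-numbered WT and Lcn2-/- arrays had correlations of their deviations of 0.0122, 0.252, 0.0263 and −0.221. Slide column, in which slide 2 neighbours correlated at 0.162, 0.218, 0.137 and 0.64, gave 150 genes as a block, 111 of them among the 155, and Lcn2, Cyp7b1, Sult5a1, Tubb2a, Vipr2, Klf1, IGHG3, IGHG2C and 2900073C17Rik no longer passed (limma adjusted p 0.0519 to 0.0757). With replicate number as a block 92 genes differed, 34 lower, 21 on chromosome 2 and 48 outside chromosomes 2 and 5.

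For the 43 genes named that passed, 1283 values were computed under the alternatives. None changed direction, 1032 stayed past the threshold and 251 did not, and 28 genes passed in every fit without 1 array. With the tier term 19 of the 43 passed. On chromosomes 2 and 5 those that did not were Lcn2, Lrp2, Ccdc173, Defb22, the lincRNA near 83.5 Mb, Sparcl1 and D930016D06Rik. Elsewhere they were Cx3cr1, LOC100048875, the 4 gamma chain transcripts, Cyp7b1, Klf1, Tubb2a, Vipr2, Zbtb7c, 2900073C17Rik, BC026762, Gm7967, Gm3297, the chromosome 6 lincRNA and Npn2, for which no position was used. All 43 had passed with WT CCl4 1 in the fit, and that array is 1 of the 5 behind each reported difference. A high share kept with the tier term therefore follows in part from the choice of the genes. Of the 24, 15 kept at least 75% of their difference by measured values and 9 did not, a limit chosen after the data were seen. In 14 some array of each group was well above background, and 12 of these kept that share. Among the 12 were Lcn2 (−2.81 from −3.32) and Cyp7b1 (2.89 from 2.01). The exceptions were Lrp2 (1.30 from 2.18) and IGHG2C (−0.52 from −2.41). Also below 75%, with a group not above background, were IGHG1, IGHG3, Ighg, Defb22, 2900073C17Rik, Npn2 and the lincRNA near 83.5 Mb.

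Signal over background limits the dim transcripts, and where all arrays of a group were not above background a bound or no fold is given, except that plots, medians, counts by size and the interaction use measured values. With 4 and 5 arrays the median SE of a difference was 0.196.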
